A study of Mus musculus with 6 samples.

Results

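The genes described here are 10 genes of cholesterol efflux and its control by the liver X receptors (LXR): the receptors Nr1h2 (LXRβ) and Nr1h3 (LXRα), the transporters Abca1, Abcg1 and Abcg4, the lipoprotein component Apoe, the phospholipid acyltransferase Lpcat3, the cholesterol-esterifying enzyme Soat1, and the oxysterol-producing enzymes Ch25h and Cyp46a1. They were taken by name, for their known roles and with earlier results of these data known, from the 55341 genes of the count tables. All 10 were listed there. RNA was measured by poly-A RNA-seq in cultures of cerebellar granule neurons (CGNs) of CD1-IGS mice, prepared from P6 to P8 cerebella with a Percoll gradient, each replicate from the pooled cerebella of litters, and all given AraC to stop the division of non-neuronal cells. The vehicle DMSO was given in 3 libraries, and GSK-126, which inhibits the H3K27 methyltransferase EZH2, in the other 3. The labels give DIV3 and cerebellum, while the study's methods place the drug at DIV1 or DIV3 and the RNA at DIV5. DIV3 in the labels matches the day of drug addition in a second experiment of the study, which ran RNA-seq at DIV5. The dose of the DIV3 treatment is not given in the sources used here.

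LXRs are nuclear receptors that bind DNA as heterodimers with RXR and are activated by oxysterols, which form when cholesterol is abundant. Their target genes move cholesterol out of the cell, with ABCA1 passing it to apolipoproteins such as APOE and ABCG1 to formed lipoprotein particles. In the brain, astrocytes and microglia are the main sources of APOE, and neurons turn excess cholesterol over through CYP46A1.

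Counts on genes ranged from 7407189 to 13092763 per library. The granule neuron markers were present in every library, with a summed level, in CPM (counts scaled to library size by TMM factors), of 4280 to 6934 in the DMSO group and 3388 to 5429 in the GSK-126 group. Markers of other cells were present too: astroglial markers summed to 2878 to 8461 CPM in the DMSO group and to 2741 to 8779 CPM in the other, and fibroblast and mural markers to 7497 to 10084 CPM and 8583 to 10941 CPM. Replicate 2 stood apart in both groups, with the lowest astroglial and microglial sums and the highest granule neuron sum of its group. Libraries that share a replicate number deviated together from their group means, so values are also given within the pair of libraries with the same number (pairs 1, 2 and 3). Ezh2 itself stood at 36.5 ± 6.97 CPM in DMSO cultures against 33.6 ± 7.82 CPM under GSK-126 (SD, n = 3 each), and it was not called (edgeR with the block, adjusted p = 0.563). An inhibitor of the enzyme need not change the transcript, so this level is no check of the treatment.

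The sequence in front of Abca1 is shown because Abca1 had the largest change of the called genes and because LXR-RXR heterodimers are known to bind 2 copies of AGGTCA spaced by 4 bases. These are the 250 bases before the RefSeq start of Abca1, chr4:53159896-53160145 of GRCm38.p6, printed 5′ to 3′ in the direction of the gene, which lies on the minus strand. Capitals mark an E-box, CACGTG, at -147 to -142 and the half-sites of the best match to the spaced repeat at -67 to -52, where -1 is the base before the start.
Abca1 upstream: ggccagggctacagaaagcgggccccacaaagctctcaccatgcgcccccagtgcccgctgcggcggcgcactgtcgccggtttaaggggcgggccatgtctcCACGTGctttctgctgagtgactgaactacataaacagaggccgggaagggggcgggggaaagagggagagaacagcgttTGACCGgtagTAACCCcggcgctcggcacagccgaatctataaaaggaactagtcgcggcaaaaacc

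The RefSeq promoter table held 8 of the 10 genes, Abcg1 and Abcg4 not among them, with windows of 250 bases before to 50 after the start. Both strands of 32851 such windows were searched for the repeat, and the best match of a window is the one with the fewest of its 12 half-site positions mismatched. Where matches tied, the first found was kept, the strand of the gene being searched first, and ties were not counted. Abca1 and Cyp46a1 each held a match with 3 mismatches, which 21.9% of all windows reached, and the windows of the other 6 genes reached 4, as did 76.9% of all windows (4 or fewer). The best matches of the genes called higher with the replicate block and of Cyp46a1 are set side by side below, each read on the strand where it lies, with the half-sites in capitals. They lie at -67 to -52 for Abca1, -212 to -197 for Cyp46a1, -99 to -84 for Lpcat3, -37 to -22 for Soat1 and 8 to 23, after the start, for the outermost of the 3 Apoe starts.
Abca1: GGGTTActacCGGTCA
Cyp46a1: AGCTCAagagAGGGTA
Lpcat3: AGGTAGgaagAGGGCG
Soat1: AGGACCaccaATGGCA
Apoe: CCTTCAcagcAGGGCA
The E-box was found in the windows of Abca1 alone among the 8 genes and in 7.15% of all windows. The sterol response element TCACNCCAC was in none of the windows of these genes and in 1.24% of all windows.

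GSK-126 was compared with DMSO to ask how the transcripts of maturing neurons respond to inhibition of EZH2. Abca1, Apoe, Lpcat3 and Soat1 were higher with GSK-126 in every one of the 3 pairs, by 1.10-fold to 1.66-fold, and these 4 of the 10 genes were called higher in the edgeR fit that keeps the replicate number as a block (Benjamini-Hochberg adjusted p under 0.05 over 16729 genes). None was called lower. In that fit 3.35% of all tested genes were called higher and 5.09% lower, 561 and 851 genes, a split that became 714 and 707 when libraries were scaled by total counts. Without the block, none of the 10 was called in either direction by edgeR, where 0% of all genes were called higher and 0% lower. In that fit 2 of the 10, Abca1 and Lpcat3, had an unadjusted p under 0.05, as had 296 genes with a higher and 369 with a lower mean level over the whole table. DESeq2 without the block called none of the 10, and called 19 genes higher and 2 lower in all. The median log2 fold change of the 10 was 0.28 without the block and 0.26 with it, against -0.01 over all tested genes in both fits. Unblocked, this median came to 0.16 with DMSO replicate 2 left out and to 0.076 with GSK-126 replicate 1 left out, and with the block it was 0.14 without pair 1.

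Of the 10 genes, 5 were higher in all 3 pairs, the called genes and Nr1h3, against 19.5% of all tested genes. Abcg4 alone was lower in all 3 pairs, as were 22.8% of tested genes. Lpcat3 was the one gene of the 10 whose GSK-126 libraries all lay above all of its DMSO libraries, which was so for 4.72% of tested genes, and none lay wholly below, which was so for 4.72%. The plot of the 10 genes by library shows the spread between replicates beside the treatment difference.

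**Figure D1:**
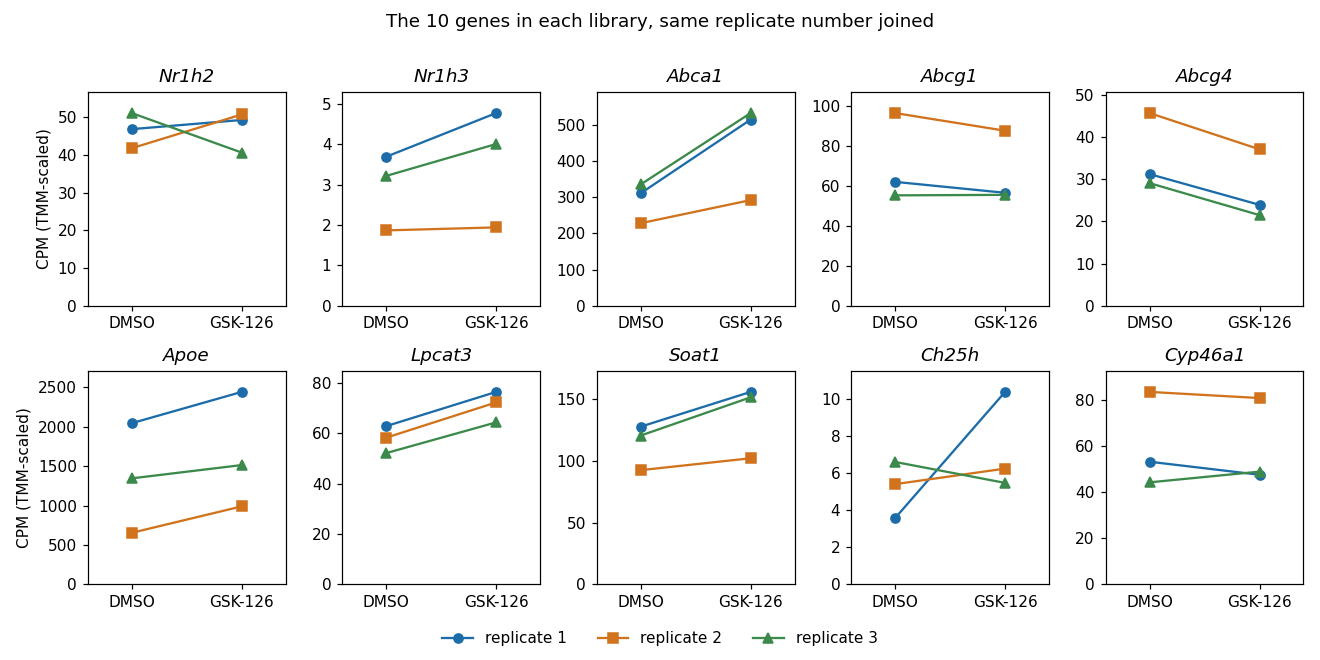
Level of each of the 10 genes in CPM scaled by TMM factors (y axis, from 0) in the DMSO and GSK-126 libraries (x axis), with lines joining libraries of the same replicate number. Lines for Abca1, Apoe, Lpcat3 and Soat1 rise in all 3 pairs, while replicate 2 lies lowest for Abca1, Apoe, Soat1 and Nr1h3 and highest for Abcg1, Abcg4 and Cyp46a1.

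The receptors gave no call in any fit run. Nr1h2, the LXR expressed in most cells (chr7:44549616-44553951, minus strand, GRCm38), had 46.8, 41.8 and 51.1 CPM in DMSO replicates 1 to 3 and 49.3, 50.7 and 40.6 CPM in the GSK-126 replicates. The groups overlapped and the pairs went both ways, with a log2 fold change of 0.01 ± 0.12 (SE, block, edgeR adjusted p = 0.972). Nr1h3, the LXR best known from macrophages and liver (chr2:91184061-91202834, minus strand), was low in these libraries, with 18 to 63 counts. Its levels were 3.69, 1.86 and 3.22 CPM with DMSO and 4.78, 1.94 and 4.01 CPM with GSK-126, higher in each pair by 1.29, 1.04 and 1.25 times, and it was not called (log2 fold change 0.27 ± 0.33, edgeR with the block, adjusted p = 0.700). Per exon length, Nr1h2 exceeded Nr1h3 in all 6 libraries, by 7.60 to 19.6 times in RPKM, and the ratio was highest in replicate 2 of both groups.

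Abca1, the transporter that loads cholesterol and phospholipid onto lipid-poor apolipoproteins (chr4:53030787-53159895, minus strand), had 311, 228 and 336 CPM in the DMSO replicates and 516, 293 and 534 CPM with GSK-126. GSK-126 replicate 2 lay below DMSO replicates 1 and 3, so the groups overlapped, but each GSK-126 library lay above its own DMSO partner, by 1.66, 1.28 and 1.59 times. The group means were 292 ± 56.3 CPM for DMSO against 447 ± 134 CPM (SD, n = 3 each). On the log2 scale the fold change was 0.62 ± 0.26 without the block (edgeR adjusted p = 0.953, unadjusted 0.0429 in a fit across all genes) and 0.59 ± 0.08 with it (edgeR adjusted p = 5.46e-05). Abca1 was called higher in every fit with the block, DESeq2 included (adjusted p = 4.44e-10), and with any one pair left out.

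The half-transporters ABCG1 and ABCG4, which pass cholesterol to formed lipoprotein particles, gave no call. Abcg1 (chr17:31057675-31117988, plus strand) had 61.9, 96.4 and 55.2 CPM with DMSO and 56.5, 87.6 and 55.4 CPM with GSK-126, and its groups overlapped almost fully. It was not called, with a log2 fold change of -0.09 ± 0.09 (edgeR with the block, adjusted p = 0.612). Abcg4, the form found chiefly in neurons (chr9:44273188-44288615, minus strand), had 31.3, 45.8 and 29.1 CPM with DMSO and 24.0, 37.2 and 21.5 CPM with GSK-126. Each GSK-126 library lay below its partner, by ratios of 0.766, 0.812 and 0.739, but the gene missed the threshold (log2 fold change -0.37 ± 0.12, edgeR with the block, adjusted p = 0.0591, DESeq2 with the block 0.208). The ratio of Abca1 to Abcg1 in RPKM was 3.54, 1.67 and 4.29 in the DMSO replicates and 6.43, 2.35 and 6.78 in their GSK-126 partners, higher in 3 of 3 pairs. With 3 pairs this ratio was given no test.

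Apoe, the main apolipoprotein made in the brain (chr7:19696109-19699188, minus strand), had 2044, 654 and 1344 CPM with DMSO and 2440.4, 989 and 1513 CPM with GSK-126. The lowest DMSO library was 3.12 times below the highest, a wider spread than any of the treatment ratios of 1.19, 1.51 and 1.13 within pairs. Without the block its log2 fold change was 0.29 ± 0.45 (edgeR adjusted p = 0.961) and with it 0.34 ± 0.08 (edgeR adjusted p = 0.00777). The call rests in part on replicate 2, since without that pair the log2 fold change was 0.22 and the adjusted p 0.129 in the same edgeR fit. Of 14 microglial markers 13 were tested, as Trem2 was at 0 counts in every library. All 13 had a fold change above 0 without the block, and 8 were higher in all 3 pairs, against 19.5% of all tested genes. With the block 5 were called higher (among them C1qa, C1qb, C1qc and Tyrobp) and 0 lower, against 3.35% and 5.09% of all tested genes. Of these markers 2 were called higher in that fit without the replicate 2 pair. Their sum ran from 498 to 992 CPM with DMSO and from 680 to 1218 CPM with GSK-126, and the pair ratios of the sum were 1.23, 1.37 and 1.18. The sum of astroglial markers had pair ratios of 1.04, 0.953 and 0.989, with 2 of 11 called higher and 0 lower in the block fit. Of the 11, 5 were higher and 4 lower in all 3 pairs. In that fit 1 was called higher and 1 lower without pair 1, and 2 higher and 1 lower without pair 3. The part of these cells in the Apoe and Abca1 values was not tested, and in bulk RNA a change in the number of cells of a type and a change in the RNA of each cell cannot be told apart.

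**Figure D2:**
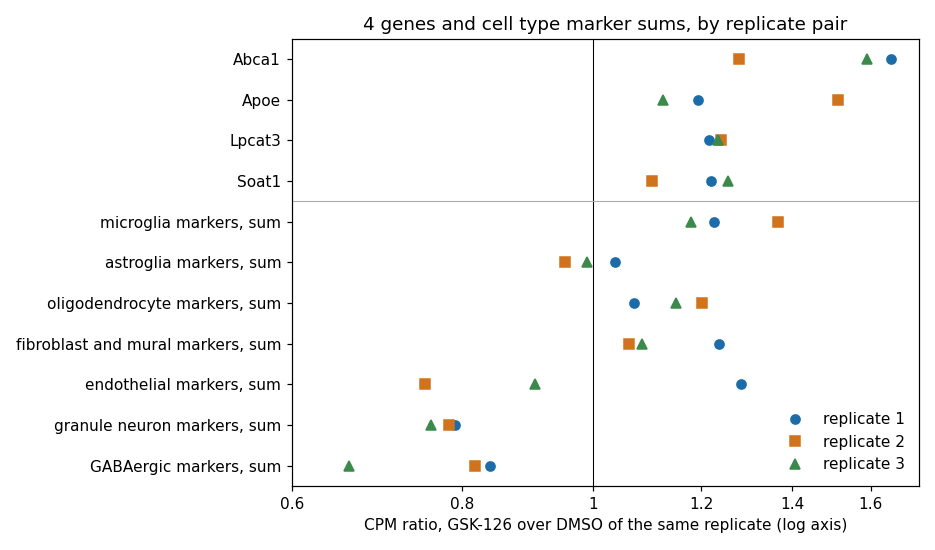
CPM ratio of each GSK-126 library over the DMSO library of the same replicate number (x axis, log scale) for the called genes and for the summed markers of 7 cell classes, progenitors not drawn (y axis), with a symbol for each of the 3 pairs. The called genes lie between 1.10 and 1.66, microglial sums between 1.18 and 1.37, astroglial sums between 0.953 and 1.04, and granule neuron sums between 0.759 and 0.792.

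Lpcat3, which places polyunsaturated acyl chains into membrane phospholipids and is a direct LXR target (chr6:124663027-124704418, plus strand), had 62.8, 58.2 and 52.1 CPM with DMSO and 76.3, 72.2 and 64.2 CPM with GSK-126. All GSK-126 libraries lay above all DMSO libraries, and the pair ratios were close to each other at 1.22, 1.24 and 1.23. Its log2 fold change was 0.30 in both fits, with an SE of 0.13 and an edgeR adjusted p of 0.953 without the block and an SE of 0.09 and an adjusted p of 0.0445 with it. DESeq2 with the block did not call it (adjusted p = 0.120), nor did edgeR with any one pair left out (adjusted p from 0.118 to 0.165). Exons of Lpcat3 share 334 bases with Emg1 on the other strand, and the strand setting of the counting is not given in the sources used here.

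Soat1, the enzyme of the endoplasmic reticulum that esterifies cholesterol for storage (chr1:156424525-156474331, minus strand), had 128, 92.7 and 121 CPM with DMSO and 156, 102 and 152 CPM with GSK-126. The groups overlapped because replicate 2 was low in both, and the pair ratios were 1.22, 1.10 and 1.26. With the block its log2 fold change was 0.25 ± 0.08 and its adjusted p 0.0490 in edgeR and 0.0840 in DESeq2, and without the block the edgeR adjusted p was 0.953. The edgeR call with the block was kept without the replicate 2 pair (adjusted p = 0.0276) and lost without pair 1 (0.233) or pair 3 (0.251).

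The oxysterol enzymes gave no call. Ch25h, which makes 25-hydroxycholesterol and is induced in activated macrophages (chr19:34473778-34475164, minus strand), was low, with 31 to 137 counts, and its exons share 159 bases with Gm26902 on the other strand. It had 3.58, 5.41 and 6.61 CPM with DMSO and 10.4, 6.25 and 5.48 CPM with GSK-126, so that the log2 fold change of 0.49 ± 0.29 (edgeR with the block, adjusted p = 0.354) came mostly from a ratio of 2.90 in pair 1, against 1.16 and 0.829 in the others. Cyp46a1, the neuronal cholesterol 24-hydroxylase (chr12:108334381-108362234, plus strand), had 53.2, 83.4 and 44.2 CPM with DMSO and 47.5, 80.8 and 48.9 CPM with GSK-126. Replicate 2 was the highest library of either group, and the log2 fold change was -0.03 ± 0.10 (edgeR with the block, adjusted p = 0.913), a direction that turned when libraries were scaled by total counts or upper quartiles, to 0.011 and 0.0092 with the block.

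**Figure D3:**
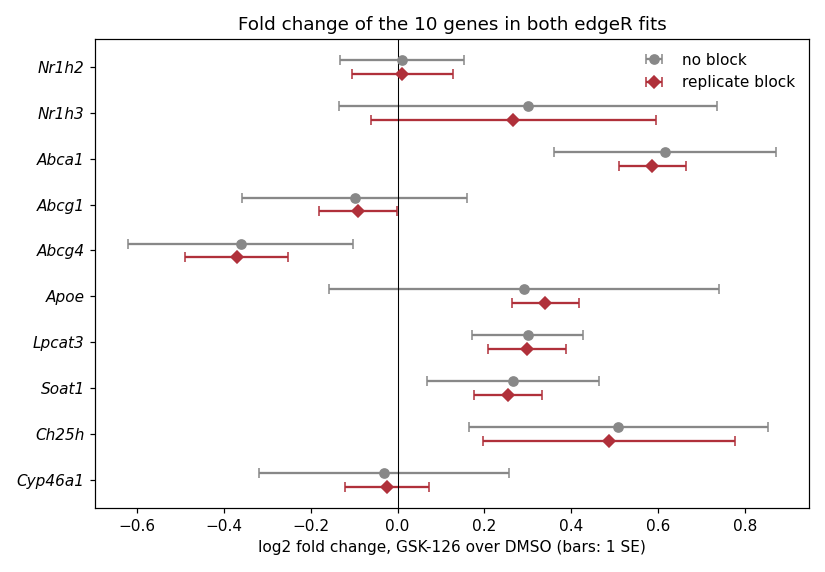
Log2 fold change of GSK-126 over DMSO for each gene (x axis) in the edgeR fits without a block (grey circles) and with the replicate block (red diamonds), with bars of 1 SE. The estimates differ little between fits while the bars of Apoe shrink from 0.45 to 0.08 and those of Abca1 from 0.26 to 0.08.

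The spread between replicates split the 10 genes into sets. Replicate 2 was below the mean of replicates 1 and 3 in both groups for 4 genes, at 0.386 and 0.501 of it for Apoe (DMSO and GSK-126), 0.540 and 0.441 for Nr1h3, 0.706 and 0.557 for Abca1 and 0.745 and 0.665 for Soat1. It was above that mean in both groups for Abcg1 (1.65 and 1.56 times), Abcg4 (1.52 and 1.63 times), Cyp46a1 (1.71 and 1.68 times) and, by far less, Lpcat3 (1.01 and 1.03 times). The first 4 went with the astroglial and microglial sums, which were lowest in replicate 2, and Abcg1, Abcg4 and Cyp46a1 with the granule neuron sum, which was highest there. This is a description of 3 pairs and was not tested.

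Per exon length Apoe was the most abundant of the 10, at 630 ± 325 RPKM in the DMSO group against 771 ± 344 RPKM under GSK-126 (SD, n = 3 each), above Abca1 in every library by 13.7 to 31.8 times. With DMSO it was followed by Abca1 (28.2 ± 5.44 RPKM), Cyp46a1 (18.3 ± 6.25), Lpcat3 (17.6 ± 1.64), Nr1h2 (13.9 ± 1.39), Soat1 (11.6 ± 1.90), Abcg1 (9.75 ± 3.03), Abcg4 (6.79 ± 1.74), Ch25h (3.75 ± 1.10) and Nr1h3 (1.16 ± 0.377). The DMSO libraries of Abca1 and Cyp46a1 overlapped, as did those of Cyp46a1 and Lpcat3, of Nr1h2 and Soat1, of Soat1 and Abcg1, and of Abcg1 and Abcg4, so the order within these neighbours is not beyond their spread. Abcg1 nevertheless exceeded Abcg4 in all 6 libraries, by 1.35 to 1.84 times, and the ratio was higher with GSK-126 in each pair.

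**Figure D4:**
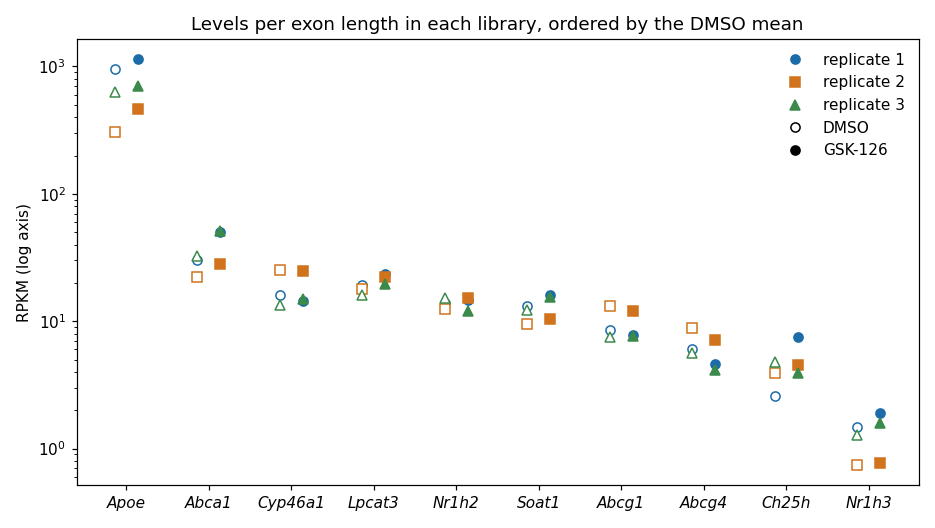
Level of each gene per exon length in RPKM (y axis, log scale) in the 6 libraries, with open symbols for DMSO, filled symbols for GSK-126 and a shape for each replicate number. Genes are ordered by their DMSO mean from Apoe at 630 RPKM to Nr1h3 at 1.16 RPKM.

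Some of the other known LXR target genes were called, all of them higher. Of 16 listed, 10 passed the filter on low counts, and 9 of these had a fold change above 0, with a median log2 fold change of 0.39 without the block (0.26 when DMSO replicate 2 was left out). With the block 6 were called higher, 0 lower and 4 not called, against 3.35% higher and 5.09% lower of all tested genes. When pair 1 was left out, 4 were called higher. The 4 with the smallest p were Scd1 and Scd2, stearoyl-CoA desaturases (log2 fold changes 0.79 ± 0.08 and 0.46 ± 0.07), Fasn, fatty acid synthase (0.66 ± 0.07), and Lpl, lipoprotein lipase (0.45 ± 0.08). Scd1 had 146, 181 and 135 CPM with DMSO and 271, 266 and 255 CPM with GSK-126, so that its groups were apart. The other called genes, named after their values were seen, were Mylip, the ligase that degrades the LDL receptor (log2 fold change 0.64 ± 0.14, edgeR adjusted p = 0.00568), and Srebf1, the lipogenic transcription factor (0.32 ± 0.08, edgeR adjusted p = 0.0154). The 4 not called, also named after their values were seen, were Mertk (0.36 ± 0.13), Pltp (0.25 ± 0.09), Arl4c (0.20 ± 0.12) and Smpdl3a (-0.07 ± 0.11). Their adjusted p in edgeR with the block ran from 0.081 to 0.765. Scd1, Scd2 and Fasn are also known targets of SREBP-1, and no measurement here separates the factors.

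The 3 RXR partners of LXR gave no call: Rxra had pair ratios of 1.15, 1.12 and 1.26 (log2 fold change 0.24 ± 0.10, edgeR with the block, adjusted p = 0.174), Rxrb 1.07, 1.05 and 0.929, and Rxrg had 0 to 21 counts. These 3 were named after their values were seen. Of the 10 partners and coregulators listed, all were tested, and 8 were lower in all 3 pairs, against 22.8% of all tested genes. The median log2 fold change was -0.26 without the block (-0.15 when DMSO replicate 2 or GSK-126 replicate 1 was left out). Against 3.35% higher and 5.09% lower of all tested genes, with the block 0 were called higher and 4 lower, all of them coregulators. Among these were the corepressor Ncor1 (log2 fold change -0.30 ± 0.07, edgeR adjusted p = 0.013), the coactivator Ncoa2 (-0.27 ± 0.08, 0.0321) and the corepressor Nrip1 (-0.30 ± 0.09, 0.0418). The count was 0 without the replicate 2 pair, 2 without pair 1, and 1 without pair 3, with upper-quartile or total-count scaling, or with DESeq2, each with the block.

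Cholesterol synthesis enzymes, which are controlled by SREBP-2 when sterols are low, had the largest median difference of the lists compared. All 20 were tested and all 20 had a fold change above 0, with a median log2 fold change of 0.76. With the block 18 were called higher and 0 lower, against 3.35% higher and 5.09% lower of all tested genes. Without the block edgeR called none of the 20 after the filter on low counts, although 19 had an unadjusted p under 0.05, while it called 6 higher with no filter and DESeq2 without the block called 9 higher. Those with the smallest p were Hmgcs1, Fdft1, Msmo1 and Idi1. Hmgcs1, the cytosolic HMG-CoA synthase, had 443, 447 and 402 CPM with DMSO and 760 to 945 CPM with GSK-126, a log2 fold change of 0.97 ± 0.07 (edgeR with the block, adjusted p = 9.35e-08). Idi1, isopentenyl diphosphate isomerase, had the largest difference of these 4, at 1.21 ± 0.10. Exons of Hmgcs1, Fdft1 and Idi1 overlap genes on the other strand by 557, 774 and 323 bases. The summed level of these enzymes was higher with GSK-126 in each pair, by 1.61, 1.79 and 1.78 times. Abca1 was higher by 1.66, 1.28 and 1.59 times in the same pairs, and a relation between them was not tested.

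Other sterol transport and lipoprotein genes were mixed. Of 21 listed, 20 were tested, and the median log2 fold change was -0.02. With the block 3 were called higher and 5 lower, against 3.35% higher and 5.09% lower of all tested genes. The sterol carrier Stard4 was higher by 0.91 ± 0.08 and the lysosomal cholesterol carrier Npc2 by 0.52 ± 0.08 on the log2 scale. The apolipoprotein Apod (-0.42 ± 0.08) and the transporter Abca2 (-0.34 ± 0.07) were lower. The lower calls numbered 2 without pair 1 and 3 with total counts. Among 11 relatives of Soat1 and Lpcat3, 10 were tested, with a median of 0.06. Beside the same shares of all tested genes, 2 were called higher with the block and 0 lower: Lpcat1, an acyltransferase acting on lysophosphatidylcholine (0.35 ± 0.09), and the cholesteryl ester hydrolase Nceh1 (0.32 ± 0.09). Without pair 1 none of these was called in edgeR with the block, and with DESeq2 1 was. Of 8 other oxysterol and bile acid enzymes, 5 were tested, 4 of them below 0 and 1 above, with a median of -0.28 (-0.48 to -0.10 when 1 library was left out), and none was called in either fit, nor had any an unadjusted p under 0.05. Those named by the rule were Cyp39a1 (-0.57 ± 0.28), Cyp27a1 (-0.73 ± 0.49), Cyp7b1 (0.12 ± 0.16) and Hsd3b7 (-0.24 ± 0.44).

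**Figure D5:**
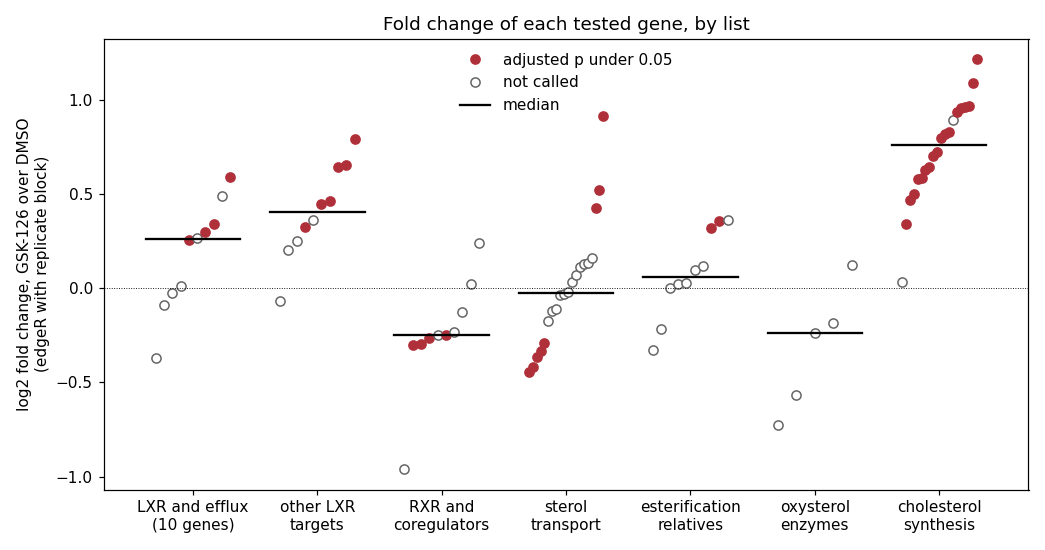
Log2 fold change of GSK-126 over DMSO in the edgeR fit with the replicate block (y axis) for each tested gene of 7 lists (x axis), with filled red points for an adjusted p under 0.05, open points for genes not called and a line at each list's median. Cholesterol synthesis holds 18 called genes of 20, other LXR targets 6 of 10, and the 10 genes of LXR and efflux 4.

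Cell markers moved beside these lists. Of all tested genes, 3.35% were called higher and 5.09% lower with the block. Granule neuron markers had a fold change below 0 in 10 of 11, with 7 called lower and 1 higher with the block, among them Gabra6, Etv1 and Cbln3. Fibroblast and mural markers were above 0 in 8 of 8, with 3 called higher (Acta2, Pdgfrb and Col1a2) and 0 lower. GABAergic markers had 3 of 6 called lower and 0 higher (1 lower without pair 1, and 1 lower and 1 higher without pair 3), oligodendrocyte markers 1 of 7 higher, and endothelial and progenitor markers none of 4 and none of 3 tested. Pair ratios were 1.66, 1.28 and 1.59 for Abca1 and 1.23, 1.37 and 1.18 for the microglial sum. They were 1.24, 1.06 and 1.09 for the fibroblast and mural sum and 0.792, 0.783 and 0.759 for the granule neuron sum. A sum follows its most abundant markers and is no measure of cell number. The part of cell make-up in the called genes was not tested.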

How the data were processed

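Poly-A RNA-seq libraries of CGN cultures were measured in 2 groups of 3, DMSO and GSK-126, grouped by the sample labels. The authors used Trimmomatic 0.38 for trimming, STAR 2.7.2b for alignment to GRCm38.p4 (mm10) and HTSeq for counting on Gencode exons, and deposited raw counts per gene. The annotation release, strand setting and HTSeq version are not given in the sources used here. Between 58.7% and 60.7% of the listed reads fell in 5 classes that name no gene and were left out. The 55341 symbols equal those of GENCODE M21, which gave coordinates, overlaps and the exon lengths for RPKM.

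Counts were tested in R 4.3.3 with edgeR 4.0.16 (TMM factors, filterByExpr, quasi-likelihood test, no block), with calls at a Benjamini-Hochberg adjusted p under 0.05 over all genes tested. With these settings 0 genes were called, so calls in the Results come from edgeR with the replicate number as a block unless stated. The block was fitted because the numbers pair the libraries. Deviations from the group means correlated across genes at 0.586, 0.663 and 0.513 for equal numbers and at 0.0122 or less for different numbers. Since deviations are taken from a group's own mean, low values for different numbers follow in part from high values for equal numbers. Genes are not independent replicates. The biological coefficient of variation was 24.0% without the block and 9.74% with it. DESeq2 1.42.0, other scalings and filters, and left-out libraries or pairs were the alternatives, and fits with the block under upper-quartile or total-count scaling were added after the data were seen. Scripts were tested on simulated data.

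The 10 genes and all lists were chosen with earlier results of these data known. All 10 are named, and of each other pathway list at most the 4 genes with the smallest p in the block fit, with exceptions stated. Some listed genes are not reported here by name. Counting error alone is not given as intervals, and genes near 3 CPM rest on 18 to 63 counts. Each replicate is a pool of litters, so p-values without the block measure the spread between such cultures. With the block they measure how the treatment difference varies between pairs. No 2 libraries were copies of each other. Promoter windows came from RefSeq (GRCm38.p6).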

Additional observations from a re-analysis of the deposited data

How the results depend on the processing

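Of the 10 genes, edgeR without the block called 0 under every scaling and filter tried and with any 1 library left out (range 0 to 0 for calls over all genes too), except that without a filter on low counts 9 genes were called higher and 1 lower in all. DESeq2 without the block called 19 higher and 2 lower. The replicate block raised the counts to 561 higher and 851 lower in edgeR, with 4 of the 10 genes higher, and to 359 and 604 in DESeq2, with 2 of the 10. With the block, upper-quartile factors gave 727 and 698, total counts 714 and 707, and 4 of the 10 genes higher each time. Leaving out pair 1, 2 or 3 with the block left 417, 337 and 558 genes higher, 671, 496 and 719 lower and 2 of the 10 higher, Abca1 in each case with Apoe (without pair 1 or 3) or Soat1 (without pair 2). Cyp46a1, not called, turned from -0.03 to 0.013 with total counts (0.011 with the block) and to 0.0050 with upper-quartile factors (0.0092 with the block). With 1 library left out and no block, log2 fold changes ranged from -0.094 to 0.73 for Apoe, from -0.33 to 0.19 for Abcg1, from -0.30 to 0.28 for Cyp46a1 and from -0.060 to 0.10 for Nr1h2, so these turned sign, Apoe when DMSO replicate 2 or GSK-126 replicate 1 was missing. With pair 1 left out and the block, Ch25h turned to -0.013, Cyp46a1 to 0.058 and Nr1h2 to -0.0066, and Nr1h2 to -0.12 with pair 2 left out. The other 5 genes kept their direction under every alternative. Where a group kept fewer libraries, its spread was pooled with the other group. The cause of these shifts was not tested. Nr1h3 and Ch25h had the lowest counts of the 10 genes, 18 to 137 per library.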
